A study of Mus musculus with 2 samples.

Results

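Gpr132, Gpr65, Hcar2, Car2, Car9 and Car12 are 6 of the 32285 genes listed for 2 single-cell libraries of mouse pancreatic tumors. They were taken by their symbols, and all 6 had UMIs (unique RNA molecules) in the kept cells. Cancer cells that ferment glucose export lactate together with protons, so the fluid around them turns acid. Gpr65 and Gpr132 belong to the proton-sensing family of G protein-coupled receptors, in which Gpr65 raises cAMP, and Gpr132 has also been described as a lactate sensor of macrophages. Hcar2 is a receptor for hydroxybutyrate and niacin from the family that also holds the lactate receptor Hcar1. Carbonic anhydrases turn carbon dioxide and water into bicarbonate and a proton. Car2 works inside the cell, whereas Car9 and Car12 sit in the plasma membrane with the active site outside.

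Each condition is 1 library of live, unsorted cells from tumors in the pancreas. These were started by implanting KPC cells, which are mouse pancreatic cancer cells. The library labelled FLOX came from MCT1 fl/fl mice, in which Slc16a1, the gene of the lactate and proton carrier MCT1, is flanked by loxP sites. The library labelled MCT1-KO came from Col1a2-CreERT2 mice with the same floxed gene, also written PSCs-MCT1-/-, in which tamoxifen is meant to remove it in pancreatic stellate cells (PSCs) and other cells that use the Col1a2 promoter. The implanted KPC cells come from a separate line and not from these mice. The age of these mice, how many entered each library and whether the FLOX mice received tamoxifen or corn oil were not given in the sources used here. With 1 library per condition there was no replicate, so no test was made, and every interval below is a 95% interval of counting error only.

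After filtering, 8739 FLOX cells with a median of 4069 UMIs and 11689 MCT1-KO cells with a median of 3706 UMIs were kept, and 59 barcodes occurred in both libraries. Clusters were named from fixed markers. The 7 classes with at least 50 cells in each library were tumor-like, macrophage-like, neutrophil-like, T-like, PSC/fibroblast-like, endothelial-like and dendritic-like. All markers of the neutrophil (7), macrophage (11), T (8) and endothelial (7) lists were found in at least 10% of the cells of those classes in both libraries, as were 9 of 10 for PSC/fibroblast-like cells. Dendritic-like cells had 7 of 9 in FLOX and 6 of 9 in MCT1-KO. Tumor-like cells had 9 of 14, without Epcam (0.486% and 0.671% of cells), Cldn4 (0.0811% and 0.242%), Hmga2, Slurp1 and Csf3. Another 20.3% of FLOX and 26.9% of MCT1-KO barcodes, mostly with few UMIs, stayed unnamed. Slc16a1 was not lower in PSC/fibroblast-like cells of the library labelled MCT1-KO, with 57 UMIs or 25.6 CPM in FLOX and 113 UMIs or 35.7 CPM in MCT1-KO. Here and below, CPM are the UMIs of a gene per 1000000 UMIs of the cells named. These are 3′ tags, and where the deleted part lies was not checked, so this does not test the deletion. Tumor-like cells also held RNA of the macrophage list, with 4355 CPM in FLOX and 2839 CPM in MCT1-KO. The PSC/fibroblast list summed to 2146 and 1361 CPM there, and the tumor list to 3723 and 3620 CPM. The part of this RNA in the tumor-like values below was not tested. Heat shock genes differed in every class. All 5 of the listed genes (Hspa1a, Hspa1b, Hsph1, Dnajb1 and Hsp90aa1) had ratios of MCT1-KO over FLOX with intervals under 1 in 6 classes, as did the 4 measurable ones in neutrophil-like cells. Their median ratio lay between 0.0518 and 0.378, and its part in the results below was not tested.

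**Figure D1:**
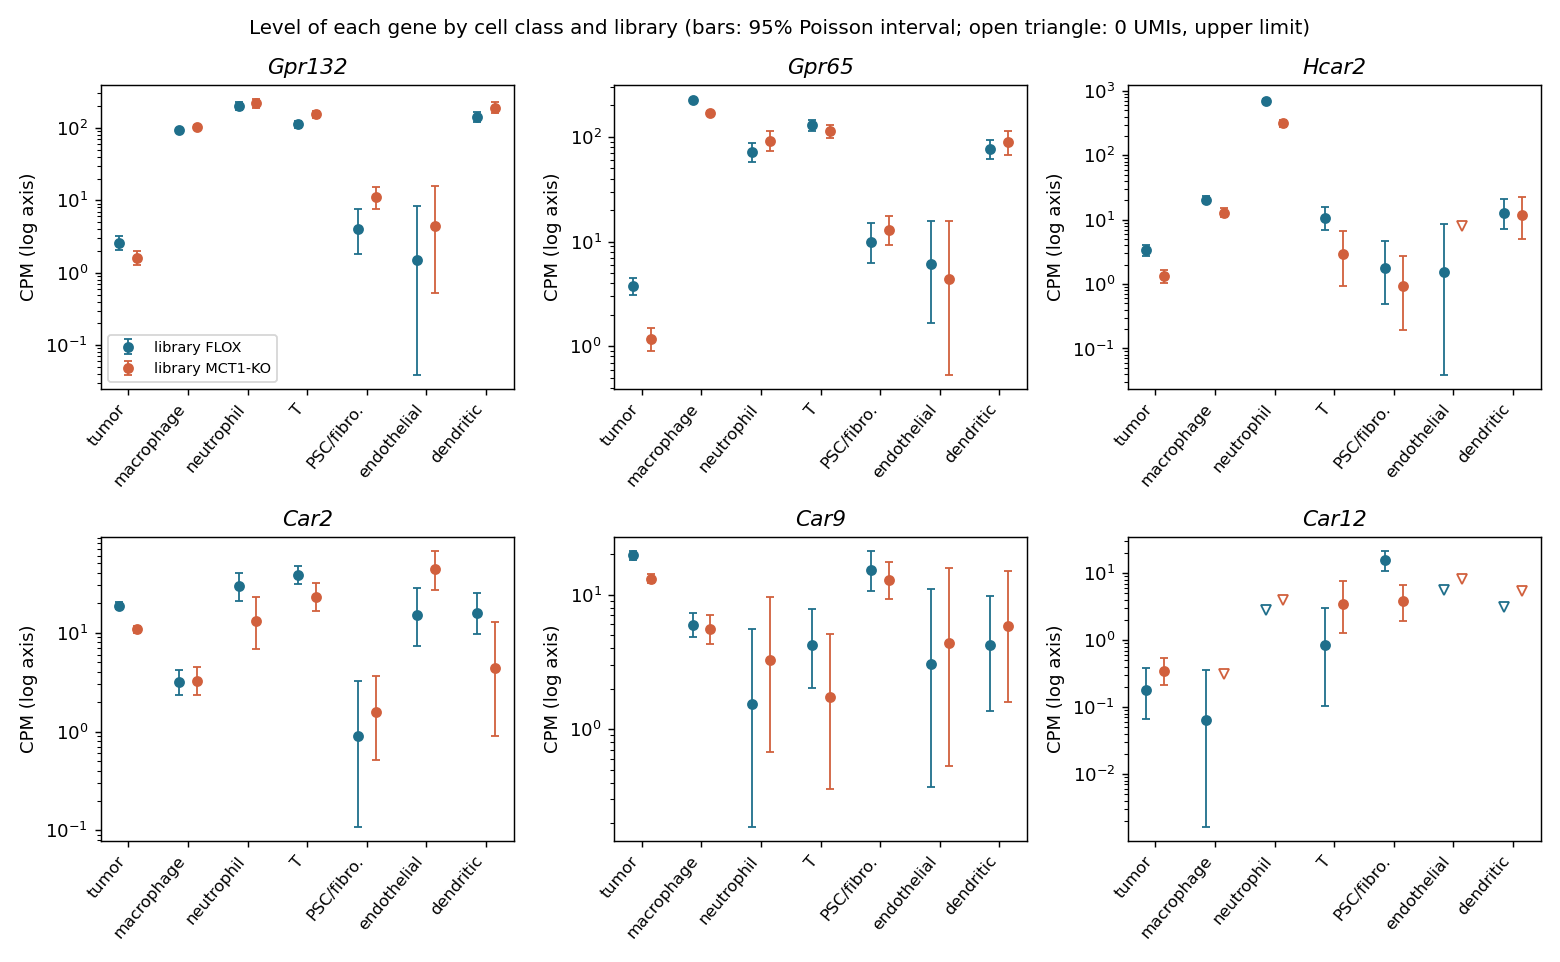
CPM (log axis) of each gene in 7 cell classes, FLOX in blue and MCT1-KO in orange, with 95% Poisson intervals and open triangles at the upper limit where no UMI was counted. Gpr65 and Gpr132 were high in the immune classes, and Hcar2 reached 708 and 312 CPM in neutrophil-like cells. Car9 had its highest values in tumor-like cells, with intervals that met those of PSC/fibroblast-like cells in both libraries. Car12 had its highest values in PSC/fibroblast-like cells, with an interval that met that of T-like cells in MCT1-KO.

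By share of UMIs, Gpr65 was mainly found in macrophage-like cells. Macrophage-like cells held 82.3% (95% interval 81.4 to 83.2) of its 6702 UMIs and 19.3% of all UMIs. Its level there was 224 CPM in FLOX (3487 UMIs) and 170 CPM in MCT1-KO (2028 UMIs). T-like cells came next with 129 and 113 CPM, followed by neutrophil-like cells with 71.1 and 91.5 CPM and dendritic-like cells with 76.3 and 88.7 CPM. The intervals of the dendritic-like and neutrophil-like levels met in both libraries, so their order is open. In MCT1-KO the T-like interval met those of neutrophil-like and dendritic-like cells as well. The small T-like cluster led by Nkg7, Gzmf and Trbc2 had 229 CPM in FLOX (177 to 292, 65 UMIs) and 219 CPM in MCT1-KO (146 to 317, 28 UMIs). These intervals met those of macrophage-like cells. The largest T-like cluster had 115 and 111 CPM, and the remaining one 115 and 67.7 CPM. Tumor-like cells had 3.74 and 1.18 CPM, under the 22.1 and 10.9 CPM of barcodes with 10 to 100 UMIs, which hold free RNA. A level under that of free RNA does not show where these UMIs came from, and this was not tested.

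In macrophage-like cells the Gpr65 level of MCT1-KO was 0.758 times that of FLOX (interval 0.717 to 0.80). The median of all 11438 genes with at least 50 UMIs in this class was 1.02, and 80% of them lay between 0.684 and 1.47, so the ratio of Gpr65 was within the usual range of genes. The 4 macrophage-like clusters were not alike. The C1q cluster, the largest in both libraries, had 247 CPM in FLOX and 208 CPM in MCT1-KO. In the Arg1 cluster the levels were 188 and 178 CPM, with an interval of the ratio that included 1 (0.842 to 1.07). The cycling cluster had 213 and 117 CPM, a ratio of 0.546 (0.445 to 0.666). A C1q cluster with few UMIs per cell gave 128 and 68.2 CPM. Free RNA carried Gpr65 with a ratio of 0.493 as well, and after subtraction the ratio of the class was 0.776 with the total kept and 0.601 with the total reduced as well, where the median of all genes was 1.03. Thinned to 1000 UMIs per cell, 18.9% of 2369 FLOX and 17.0% of 2104 MCT1-KO macrophage-like cells had a Gpr65 UMI. These intervals met (17.3 to 20.5 and 15.4 to 18.7). Without thinning the shares were 60.0% and 49.6%, at median depths of 5900 and 4848 UMIs, and endothelial-like cells, which are not known for the gene, had 1.67% and 1.38%.

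Among T-like cells, those with Cd8 and no Cd4 UMIs had 132 CPM of Gpr65 in FLOX (192 UMIs) and 93.3 CPM in MCT1-KO (93 UMIs). The ratio was 0.705 (0.544 to 0.908), whereas the interval of the whole T-like class included 1 (0.877, 0.729 to 1.05). Cells with Cd4 and no Cd8 UMIs had 138 and 151 CPM, and this interval included 1 (0.707 to 1.67), as did that of cells with neither or both (1.26, 0.854 to 1.88). The difference between the subsets was not tested. T-like cells also held RNA of the macrophage list, with 6311 CPM in FLOX and 4135 CPM in MCT1-KO. Macrophage-like cells had 48040 and 51146 CPM of it. The part of this RNA in the Gpr65 values of T-like cells was not tested.

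Gpr132 was less concentrated in macrophage-like cells than Gpr65, by share of UMIs. Neutrophil-like cells had the highest level among the 7 classes, 202 CPM in FLOX and 221 CPM in MCT1-KO. Dendritic-like cells followed with 142 and 192 CPM, T-like cells with 112 and 155 CPM and macrophage-like cells with 93.2 and 104 CPM. Intervals of dendritic-like and T-like cells met in both libraries, those of neutrophil-like and dendritic-like cells in MCT1-KO only, and macrophage-like cells lay under the T-like interval in both. Because macrophage-like cells are many, they still held 62.3% of its 4321 UMIs, against 12.3% in T-like and 10.8% in neutrophil-like cells. The small B-like cluster, which had 32 FLOX and 178 MCT1-KO cells and so was not compared, had 280 and 144 CPM. Tumor-like cells had 2.58 and 1.60 CPM, and endothelial-like cells 1 and 2 UMIs, where free RNA had 18.7 and 18.8 CPM.

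The level of Gpr132 in macrophage-like cells was 1.11 times as high in MCT1-KO (1.03 to 1.20; 1452 and 1242 UMIs), which is near the median of all genes. With the free RNA of the gene taken off and the class total kept it was 1.16, and with the total reduced as well it was 0.901, where the median of all genes was 1.03. The direction thus depends on the total. It was 1.38 times as high in T-like cells (1.16 to 1.64) and 1.35 times in dendritic-like cells (1.07 to 1.71). PSC/fibroblast-like cells had 9 and 35 UMIs, or 4.04 and 11 CPM, a ratio of 2.74 (1.29 to 6.47) at levels under free RNA, and the B-like cluster had a ratio of 0.515 (0.289 to 0.952). In neutrophil-like cells the ratio of 1.09 had an interval that included 1 (0.905 to 1.32). The thinned share of T-like cells with a Gpr132 UMI was 11% in FLOX (8.47 to 13.9) and 17.4% in MCT1-KO (14 to 21.2). Within macrophage-like cells, the C1q cluster had 85.4 CPM in FLOX and 113 CPM in MCT1-KO, a ratio of 1.33 (1.20 to 1.47). The Arg1 cluster had the highest level of these clusters, 135 and 131 CPM, and its interval included 1 (0.841 to 1.11). So among macrophage-like clusters Gpr65 was highest in the C1q cluster in both libraries, and Gpr132 in the Arg1 cluster in FLOX. In MCT1-KO the Gpr132 intervals of these 2 clusters met (105 to 122 and 118 to 144).

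Both receptors were rarely seen in the same thinned cell. Of 447 FLOX macrophage-like cells with Gpr65, 44 also had Gpr132 (9.84%), and of cells without Gpr65 8.95% had it. In MCT1-KO it was 46 of 358 (12.8%) against 9.62%.

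**Figure D2:**
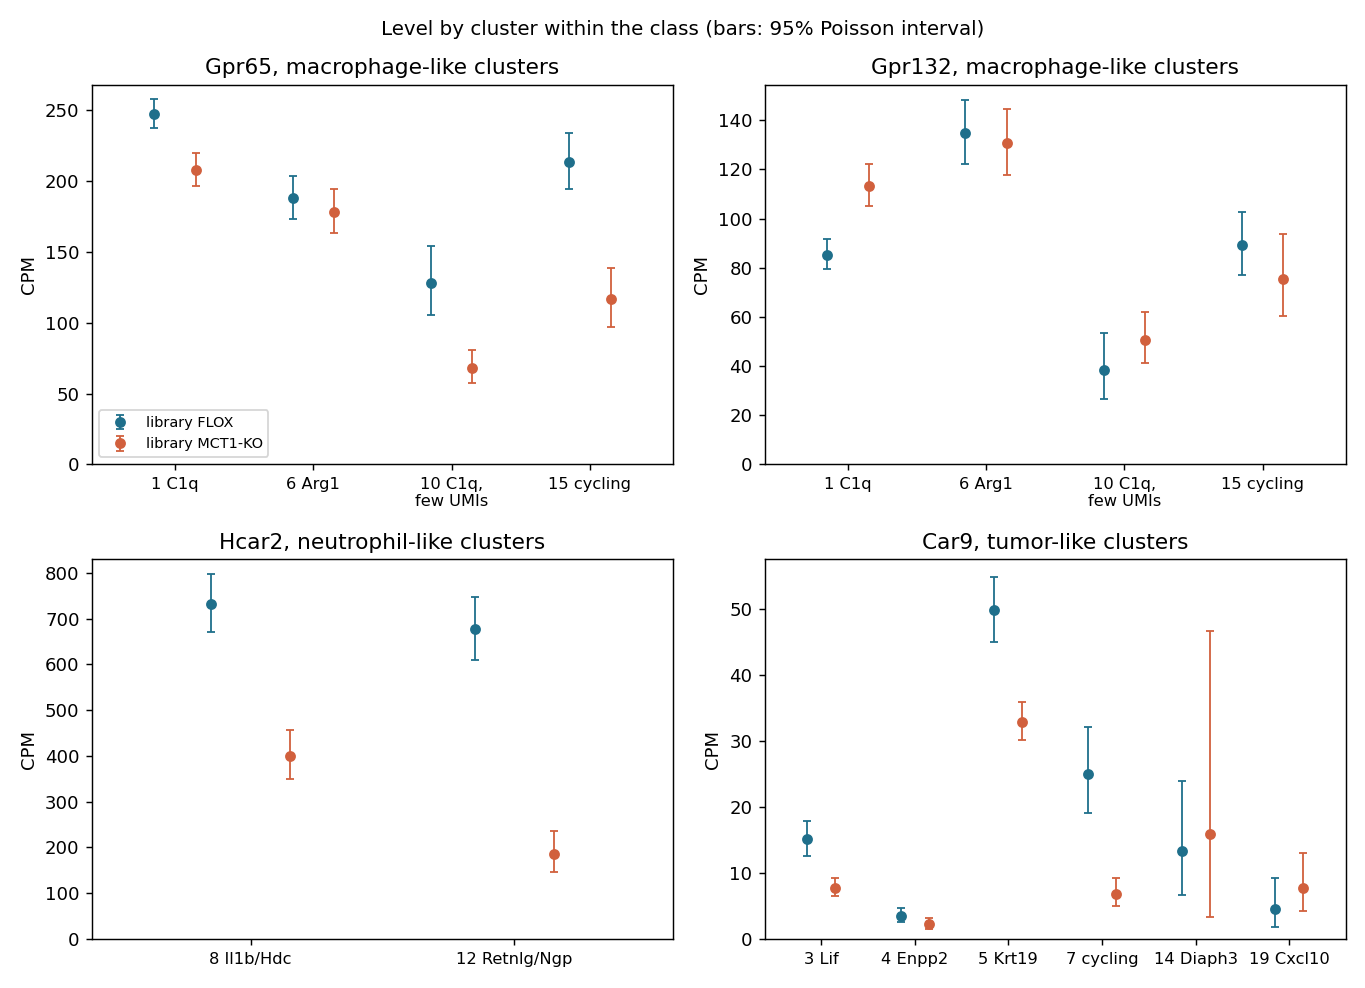
CPM by cluster for Gpr65 and Gpr132 in macrophage-like, Hcar2 in neutrophil-like and Car9 in tumor-like clusters, FLOX in blue and MCT1-KO in orange, with 95% Poisson intervals. Gpr65 peaked in the C1q cluster, Gpr132 in the Arg1 cluster (in MCT1-KO with an interval that met that of the C1q cluster) and Car9 in the Krt19 cluster, and Hcar2 was lower in MCT1-KO in both neutrophil-like clusters.

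Hcar2 marked neutrophil-like cells. They held 61.1% (58.9 to 63.3) of its 1967 UMIs and 1.55% of all UMIs. FLOX neutrophil-like cells had 916 UMIs or 708 CPM, and MCT1-KO ones 286 UMIs or 312 CPM. Of the other compared classes, macrophage-like cells had 20.5 and 12.8 CPM, above the 15.9 and 5.89 CPM of free RNA. The FLOX cells of the small B-like cluster had 93.3 CPM, from 6 UMIs. Dendritic-like cells had 12.6 and 11.6 CPM, and their intervals met those of macrophage-like cells in both libraries. In FLOX the Arg1 cluster had 36.1 CPM, the highest level of the macrophage-like clusters, and in MCT1-KO 13.5 CPM. Tumor-like cells were under the free RNA level, with 3.35 and 1.32 CPM. Endothelial-like cells of MCT1-KO had 0 UMIs, which allows up to 6.57 CPM by 3 counts.

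The Hcar2 level of neutrophil-like cells in MCT1-KO was 0.440 times that of FLOX (0.384 to 0.503). At a fold of 2, 3.83% of the 4885 genes with at least 50 UMIs in this class were higher in FLOX and 3.85% in MCT1-KO. Of the 4 members measured there, Hcar2 and Car2 were past it, both higher in FLOX. For Car2 this rests on a single FLOX cell with 14 UMIs, without which the ratio was 0.703 (0.321 to 1.46) and 36 UMIs remained. The lower Hcar2 level of MCT1-KO was found in both clusters. In the cluster led by Hdc, Il1r2 and Il23a it was 732 and 400 CPM, a ratio of 0.547 (0.465 to 0.642). In the cluster led by Retnlg, Ngp and S100a9, granule and alarmin genes, it was 676 and 187 CPM, a ratio of 0.276 (0.211 to 0.356). Thinned to 1000 UMIs, 44.2% of 703 FLOX cells (40.5 to 48.0) and 25.7% of 440 MCT1-KO cells (21.7 to 30.0) had an Hcar2 UMI, and 54 and 267 shallower cells were left out. Without thinning these shares were 55.0% and 24.9%, at median depths of 1471 and 1076 UMIs. The neutrophil marker list differed little, with 74073 CPM in FLOX and 75847 CPM in MCT1-KO. The monocyte list summed to 1703 and 7855 CPM, with 4 of 7 genes detected in each library, and the acinar list to 113 and 3959 CPM. The parts of these lists in the Hcar2 difference were not tested. Free RNA had an Hcar2 ratio of 0.370, and after subtraction the neutrophil-like ratio was 0.443 with the total kept and 0.328 with the total reduced as well, where the median of all genes was 1.02. Gpr132 and Gpr65 were not lower in the same cells, and among thinned cells with Hcar2 17.7% (FLOX) and 22.1% (MCT1-KO) had Gpr132, against 15.1% and 21.4% of those without.

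**Figure D3:**
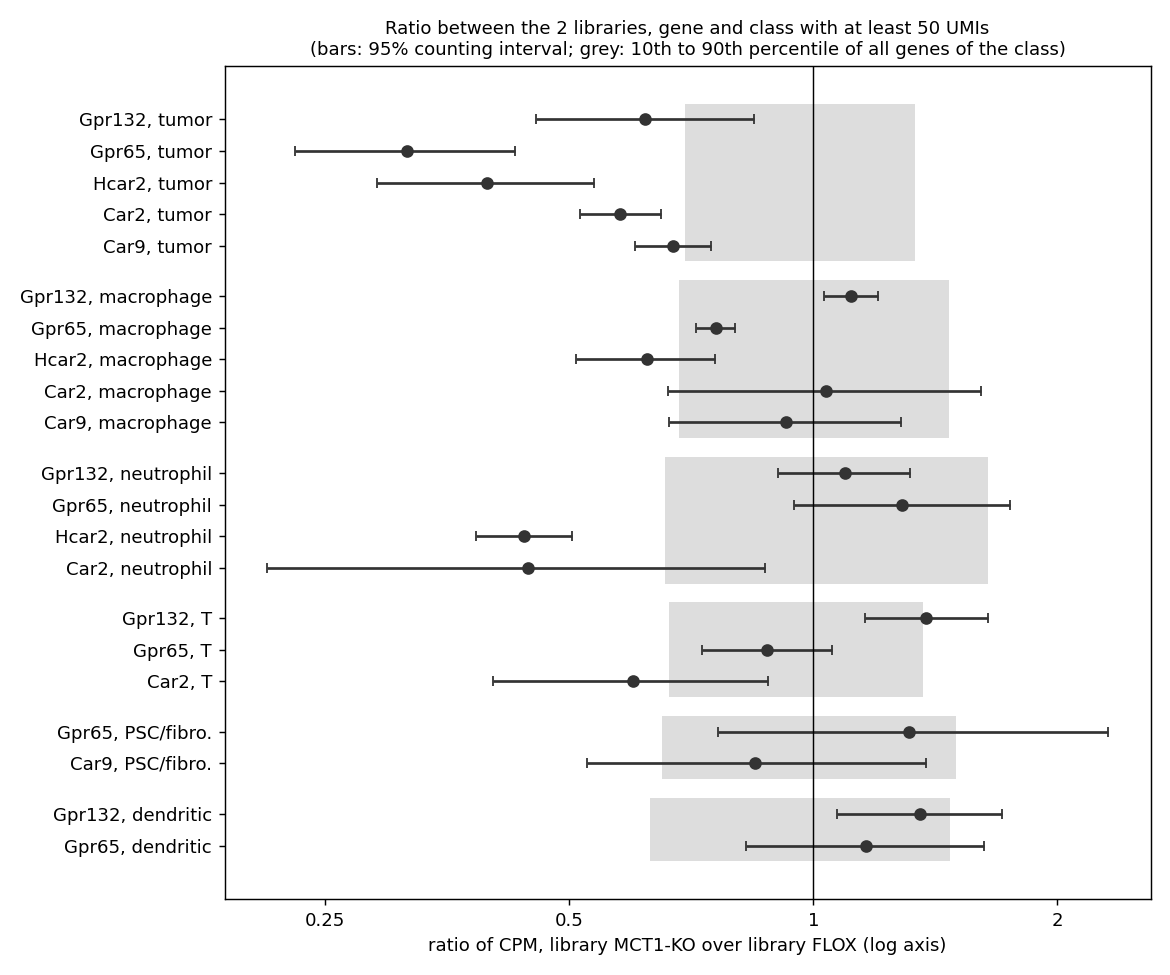
Ratio of CPM of MCT1-KO over FLOX (log axis) for each gene and class with at least 50 UMIs, with 95% counting intervals and, in grey, the 10th to 90th percentile of all genes of the class. Hcar2 in neutrophil-like cells (0.440) lay left of the grey range, whereas Gpr65 and Gpr132 in macrophage-like cells lay inside it.

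Car2 had no single home. Tumor-like cells held 63.1% of its 1924 UMIs, but they also held 61.7% of all UMIs, and with a class given to each cell from its own markers they held 24.3% of the Car2 UMIs. Their level was 18.7 CPM in FLOX (629 UMIs) and 10.8 CPM in MCT1-KO (586 UMIs), against 18.6 and 8.42 CPM in free RNA. The thinned share of tumor-like cells with Car2 was 2.05% and 1.09%, against 0.169% and 0.238% of macrophage-like, 1.85% and 1.59% of neutrophil-like and 3.16% and 1.87% of endothelial-like cells. T-like cells had 38.6 and 23.1 CPM, neutrophil-like cells 29.4 and 13.1 CPM and endothelial-like cells 15.2 and 43.8 CPM. In FLOX the T-like and neutrophil-like intervals met, and in MCT1-KO those of endothelial-like and T-like cells did.

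In FLOX the highest Car2 level was found outside the compared classes. The cluster led by Tff1, Gkn1 and Gkn2, genes of stomach-type mucous epithelium, held 13.0% of all Car2 UMIs in 78 cells, which was 20.1% of those of FLOX and 2.46% of those of MCT1-KO. Its 34 FLOX cells had 232 UMIs, or 909 CPM, of which a single cell gave 80. Its 44 MCT1-KO cells had 19 UMIs, or 66.8 CPM (40.2 to 104), and this interval met that of endothelial-like cells (26.8 to 67.7). Within T-like cells, Car2 was concentrated in the 58 cells with a natural killer gene and no Cd3 UMI, a subset that can overlap the CD8 and CD4 ones. These had 441 CPM in FLOX (31 UMIs in 24 cells) and 280 CPM in MCT1-KO (29 UMIs in 34 cells, 188 to 402 CPM), above the Tff1 cluster of that library, and the interval of the ratio included 1 (0.369 to 1.09). CD8 cells had 32.4 and 5.02 CPM, from 47 and 5 UMIs, a ratio of 0.155 (0.0481 to 0.388). In cells with neither or both of Cd8 and Cd4 the ratio was 0.770, with an interval that included 1 (0.475 to 1.24). CD4 cells had 4 and 0 UMIs. The difference between these subsets was not tested.

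In tumor-like cells the Car2 level of MCT1-KO was 0.578 times that of FLOX (0.516 to 0.648), under the 10th percentile of all 13221 genes of the class (0.695). It was 0.599 times in T-like cells (0.402 to 0.878) and 0.445 times in neutrophil-like cells (0.212 to 0.871), where 14 of the 38 FLOX UMIs came from a single cell. Macrophage-like cells had a ratio of 1.04 (0.663 to 1.61), and endothelial-like cells, with 10 and 20 UMIs, had one of 2.88 (1.29 to 6.88), which without a single MCT1-KO cell with 8 UMIs was 1.78 (0.704 to 4.59). Dendritic-like cells, with 19 and 3 UMIs, had 0.274 (0.0519 to 0.930), and without a FLOX cell with 12 UMIs 0.737 (0.123 to 3.23). In T-like cells leaving out the FLOX cell with the most UMIs gave 0.656 (0.438 to 0.968). Free RNA of Car2 was also lower in MCT1-KO, with a ratio of 0.452, and after subtraction the tumor-like ratio was 0.634 with the total kept and 0.585 with the total reduced as well. Of the 5 members with at least 50 UMIs in tumor-like cells, Gpr65 and Hcar2 were past a fold of 2, both higher in FLOX and both at levels under free RNA. Over all genes of this class, 3.55% were past it in that direction and 1.66% in the other. In T-like cells none of 3 members was past it (2.78% of genes higher in FLOX and 1.47% in MCT1-KO). The same held for the 5 members measured in macrophage-like cells (3.0% and 2.88%). It also held for the 2 in PSC/fibroblast-like cells, Gpr65 and Car9 (3.53% and 3.70%). With fewer than 50 UMIs there, Car12 (ratio 0.241) and Gpr132 (ratio 2.74) were past it in opposite directions and are not in this count.

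Car9, the membrane carbonic anhydrase known as a target of hypoxia-inducible factors (HIF), had 77.7% (75.6 to 79.6) of its 1772 UMIs in tumor-like cells, which held 61.7% of all UMIs. Their level of 19.6 CPM in FLOX and 13.2 CPM in MCT1-KO stood against 18.0 and 8.86 CPM in free RNA, with intervals that met in FLOX only. With a class given to each cell from its own markers, the class held 12% of the Car9 UMIs. The gene lies on chromosome 4 from 43506966 to 43513729 on the plus strand (GENCODE vM21, GRCm38). Its promoter is shown because HIF binds the core ACGTG. The window runs from 250 bases before the RefSeq start to 50 bases after it, chr4:43506776-43507075 on the plus strand (GRCm38.p6). The only match, in capitals, reads ACGTG on the other strand and begins 18 bases before the RefSeq start. It lies inside the GENCODE span of the gene given above.
Car9: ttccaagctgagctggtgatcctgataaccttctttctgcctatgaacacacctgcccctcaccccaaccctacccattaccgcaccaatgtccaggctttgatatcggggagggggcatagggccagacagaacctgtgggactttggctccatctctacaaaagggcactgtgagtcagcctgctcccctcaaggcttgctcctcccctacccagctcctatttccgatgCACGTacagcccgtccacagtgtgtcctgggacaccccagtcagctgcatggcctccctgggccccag
On either strand, ACGTG was found in 19.6% of all 32851 promoters of this length. The same windows of Car12, Gpr65 and Gpr132 had no match, and no promoter entry was matched for Hcar2 and Car2. The Gpr132 window follows the RefSeq start and lies within the GENCODE span of that gene. A match is a description and not a measured site.

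Car9 was unevenly spread among tumor-like clusters. In the cluster led by Krt19, Msln and Krt7 it had 49.7 CPM in FLOX (408 UMIs) and 32.9 CPM in MCT1-KO (497 UMIs). Car9 is itself among the 10 leading genes of that cluster, though it was kept out of the genes used for clustering, so its rank there is a description. The cycling cluster had 24.9 and 6.84 CPM, the Lif and Il11 cluster 15.1 and 7.76 CPM, and the Enpp2 and Gas1 cluster 3.51 and 2.22 CPM. Outside the compared classes, the Tff1 and Gkn1 cluster had 54.9 CPM in FLOX (30.0 to 92.1, from 14 UMIs) and 11 CPM in MCT1-KO (from 3 UMIs), a ratio of 0.192 (0.0354 to 0.689). Its UMIs were found in few cells, with 661 in 214 of 2467 FLOX cells and 715 in 242 of 3724 MCT1-KO cells, and up to 28 in a single cell. PSC/fibroblast-like cells had 15.2 and 12.9 CPM, and their interval met that of tumor-like cells in both libraries. Macrophage-like cells had 5.97 and 5.52 CPM.

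In tumor-like cells the Car9 level of MCT1-KO was 0.671 times that of FLOX (0.603 to 0.747), just under the 10th percentile of all genes. It was 0.662 in the Krt19 cluster (0.579 to 0.756), 0.514 in the Lif cluster (0.40 to 0.661) and 0.274 in the cycling cluster (0.181 to 0.413). The 61 FLOX UMIs of the cycling cluster lay in 19 of 329 cells, with up to 14 in a single cell, which the interval does not cover. In the Enpp2 and Gas1 cluster the Car9 ratio was 0.631, with an interval that included 1 (0.388 to 1.02). The 2 smaller clusters with few Car9 UMIs had ratios of 1.19 and 1.72, with intervals that included 1 (0.214 to 4.52 and 0.649 to 5.03). With a class given to each cell from its own markers the ratio of the class was 0.359, and 0.313 with no upper gene limit as well. The thinned shares of tumor-like cells with a Car9 UMI, 1.07% and 0.951%, had intervals that met (0.691 to 1.57 and 0.659 to 1.33). Free RNA had a ratio of 0.492, and after subtraction the tumor-like ratio was 0.731 with the total kept and 0.675 with the total reduced as well.

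Cells with Car9 also had more RNA of the hypoxia list in sum, and of some of its genes. After thinning to 1000 UMIs, the 15 listed hypoxia-inducible genes summed to 5720 CPM in 25 FLOX tumor-like cells with Car9 and to 2190 CPM in 2319 without. In MCT1-KO the sums were 5235 CPM in 34 cells and 2050 CPM in 3543 cells. The ratios of with over without were 2.61 (2.20 to 3.08) and 2.55 (2.19 to 2.96), so they were close in both libraries. Pgk1, a glycolytic enzyme, had ratios of 4.29 and 3.50, and lactate dehydrogenase Ldha 2.96 and 2.28. Egln3, the HIF prolyl hydroxylase that HIF itself induces, had 5.83 and 6.83, from 10 and 8 UMIs in cells with Car9. Higd1a had 3.44 and 3.39, and Ndrg1 1.89 and 2.34. Of the 10 genes with at least 50 UMIs in each library, these 5 had intervals above 1 in both. Bnip3, with 3.71 and 3.33, and Ero1l, with 2.51 and 10.7, had them in 1 library each. The other 3 had intervals that included 1 in both, with 0.491 and 0.939 for P4ha1, 0.486 and 1.63 for Vegfa and 0.644 and 0.808 for Slc2a1. The share of all genes with intervals above 1 in this split is not given here, so these counts are descriptions. Thinned to 2000 UMIs instead, P4ha1 had 0.885 (0.503 to 1.45) and 0.955 (0.382 to 1.98), and Vegfa 1.33 (0.683 to 2.36) and 1.06 (0.481 to 2.02). Slc2a1 then had 2.04 (1.10 to 3.48) in FLOX and 0.607 (0.196 to 1.43) in MCT1-KO. The 5 rarer genes of the list had at most 1 UMI in cells with Car9, and Pdk1, Ankrd37, Pfkfb3 and Pfkfb4 had 0 in both libraries. Leaving out the Krt19 cluster gave 1.95 (1.46 to 2.55) and 2.12 (1.63 to 2.72), and within that cluster the ratios were 2.78 and 2.60.

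**Figure D4:**
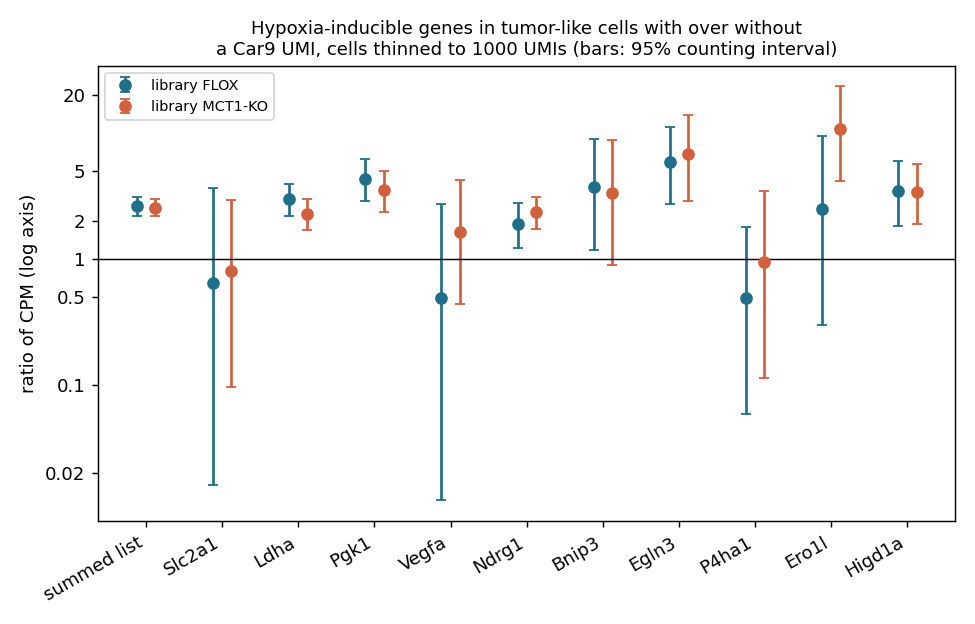
Ratio of CPM (log axis) in tumor-like cells with over without a Car9 UMI, each cell thinned to 1000 UMIs, for the summed hypoxia list and its 10 genes with at least 50 UMIs in each library over all these cells, with 95% counting intervals. The summed list lay at 2.61 in FLOX (blue) and 2.55 in MCT1-KO (orange), while Slc2a1, Vegfa and P4ha1 had wide intervals that included 1.

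Over whole classes, more hypoxia-inducible genes had intervals under 1 than above it in each of the 7 classes. In tumor-like cells 9 of 15 had intervals under 1 and 2 above it, with a median ratio of 0.859, where 27.2% of all genes with at least 50 UMIs were under 1 and 29.1% above. In macrophage-like cells 13 of 14 were under 1 and 1 above it, with a median of 0.599, against 22.4% and 26.8% of all genes. In neutrophil-like cells 8 of 13 were under 1 and 2 above it, with a median of 0.631, against 13.4% and 21.5% of all genes. The medians of all genes in these classes were 1.01, 1.02 and 1.08. In T-like cells 3 of 11 were under 1 and 1 above it, with a median of 0.870, against 15.3% and 11.2% of all genes. In PSC/fibroblast-like cells 6 of 14 were under 1 and 2 above it, with a median of 0.949, against 18.6% and 15.4%. Endothelial-like and dendritic-like cells had 5 of 9 and 5 of 8 under 1, against 14.6% and 14.7%. The 6 cAMP-inducible genes, which lie downstream of receptors such as Gpr65, had median ratios of 0.995 in macrophage-like and 1.10 in T-like cells. These medians were 0.843 in neutrophil-like, 1.27 in dendritic-like, 0.920 in tumor-like and 1.10 in PSC/fibroblast-like cells. In endothelial-like cells, where 5 of these genes had at least 50 UMIs, the median was 0.908.

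Car12 was the rarest member, with 86 UMIs in 20428 cells, and 54.7% of them (43.5 to 65.4) were in PSC/fibroblast-like cells. These held 77.8% of the FLOX UMIs but 29.3% of those of MCT1-KO, where tumor-like cells held 19 of 41 (46.3%). Of the UMIs of all genes, PSC/fibroblast-like cells held 3.65% in FLOX and 3.89% in MCT1-KO, and tumor-like cells 66.7% in MCT1-KO. In PSC/fibroblast-like cells Car12 had 35 UMIs or 15.7 CPM in FLOX, in 23 of 233 cells. In those of MCT1-KO it had 12 UMIs or 3.79 CPM, in 8 of 425 cells. The ratio was 0.241 (0.114 to 0.476), and that of free RNA was 0.466 (0.233 to 0.882). In the same class 5 adipocyte genes summed to 101 CPM in FLOX and 1512 CPM in MCT1-KO, and Col1a1, a collagen gene of fibroblasts, had 6316 and 3922 CPM in cells without a mesothelial UMI. Their part in the Car12 difference was not tested. All 47 UMIs lay in the fibroblast cluster, and the mural cluster led by Rgs5 and Actg2 had 0 UMIs in 15 and 24 cells, which allows up to 27.1 and 20.9 CPM. Thinned shares of 0.966% and 0.260% had intervals that met, since 2 and 1 cells kept a UMI. Of the other classes, tumor-like cells had 6 and 19 UMIs (0.178 and 0.350 CPM) and T-like cells 2 and 6 (0.849 and 3.47 CPM). Free RNA had 1.19 and 0.554 CPM of Car12. In MCT1-KO the intervals of PSC/fibroblast-like and T-like cells met, so no order is read there. Neutrophil-like, endothelial-like and dendritic-like cells had 0 UMIs in either library. For FLOX neutrophil-like cells a count of 0 allows up to 2.32 CPM. Mesothelial genes were also present in this class. Cells with a UMI of the mesothelial markers Upk3b, Lrrn4 or Upk1b had 16 and 7.6 CPM of Car12, from 5 and 3 UMIs, and cells without any had 15.6 and 3.24 CPM, from 30 and 9 UMIs. Car9 in the same split was 22.5 and 40.5 CPM in cells with and 14.1 and 9.01 CPM in cells without such a UMI.

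The genes whose pattern over 14 points (7 classes in 2 libraries, log2 of CPM + 1) was most like that of each member are given with the class in which they were highest. The points of a library share its depth and free RNA, so these correlations are descriptions. For Gpr132 they were Sla, Bcl2a1d, Selplg, Dennd1c and Coro1a, with Pearson correlations of 0.978 to 0.985, which were highest in dendritic-like, T-like or neutrophil-like cells and none in macrophage-like cells. For Gpr65 they were Fermt3, Laptm5, Cd84, Ccl4 and Cyth4 (0.970 to 0.987), all highest in macrophage-like cells. For Hcar2 they were Rbks, Gm31718, B430306N03Rik, Tlr6 and Fbxl5 (0.958 to 0.975), all highest in neutrophil-like cells. For Car9 they were Bphl, Tspan3, 9530068E07Rik, Lrfn3 and Sema3b (0.916 to 0.942), all highest in tumor-like cells, and for Car12 Actg2, Calca, Lgi2, Calcb and Epha3 (0.933 to 0.958), all highest in PSC/fibroblast-like cells. Car2, with no leading class by level, had lower values, 0.884 to 0.904 for Med20, Ccdc88c, Nedd9 and Eml4, of which Eml4 was highest in tumor-like cells and the others in neutrophil-like or T-like cells.

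Relatives of the members were measured as well. The proton-sensing receptor Gpr4 was highest in endothelial-like cells (44.2 CPM in FLOX and 50.4 CPM in MCT1-KO), with an interval of the ratio that included 1. Hcar1, the lactate receptor, had 1 UMI in all kept cells. Of the acid-gated channels, Asic3 was highest in PSC/fibroblast-like cells, with 50 UMIs in each library (22.4 and 15.8 CPM), and Pacc1 in macrophage-like cells, with 17.1 and 12 CPM and a ratio of 0.698 (0.565 to 0.858). Asic1 was low in tumor-like cells, with 4.0 and 4.07 CPM.

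Of 16 carbonic anhydrase genes, 6 had at least 50 UMIs in tumor-like cells, of which 5 had ratios with intervals under 1 and none above, against 27.2% and 29.1% of all genes there. The 2 that were at least 2-fold lower were Car3, with 1.75 and 0.497 CPM (ratio 0.284, 0.173 to 0.455), and Car11, a member without enzyme activity, with 2.13 and 0.626 CPM (ratio 0.293, 0.189 to 0.447). Beside the members, Car13 had 12.7 and 9.57 CPM (ratio 0.752, 0.661 to 0.857) and mitochondrial Car5b 20.2 and 20.8 CPM (ratio 1.03, 0.936 to 1.13). In PSC/fibroblast-like cells 4 had at least 50 UMIs, and 2 of these had intervals above 1, against 15.4% of all genes. Car5b had 9.42 and 17.7 CPM there, a ratio of 1.88 (1.12 to 3.26). Car3, which is abundant in fat and muscle, had 1 UMI in FLOX and 238 in MCT1-KO (0.448 and 75.1 CPM), a ratio of 167 with an interval of 29.8 to 6642. Adipocyte genes moved with it in this class, from 101 to 1512 CPM for the sum of 5 genes, of which 1 was found in at least 10% of cells, and their part was not tested.

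Of the transporters, the lactate exporter Slc16a3 (MCT4) was highest in neutrophil-like cells, with 308 CPM in FLOX and 266 CPM in MCT1-KO (ratio 0.863, 0.732 to 1.01). In macrophage-like cells it had 51 and 21.6 CPM, a ratio of 0.423 (0.366 to 0.487). Bsg, the chaperone that MCT1 and MCT4 need to reach the membrane, was lower in MCT1-KO with intervals under 1 in 6 of 7 classes, for example 586 and 463 CPM in tumor-like cells. Slc4a4, a sodium bicarbonate cotransporter, was highest in PSC/fibroblast-like cells with 63.7 and 93.4 CPM, a ratio of 1.47 (1.20 to 1.80). Slc4a7, of the same family, had 146 and 207 CPM in tumor-like cells, a ratio of 1.42 (1.37 to 1.47).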

How the data were processed

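Cells of 1 FLOX and 1 MCT1-KO tumor library were analysed, with samples grouped by their labels. Reads had been trimmed (Fastp) and UMIs counted (SeekOneTools) by the authors, who deposited the raw UMI counts of each gene and barcode. Seurat 4.0.0 is named in the submitters' processing notes. The notes name GRCh38, whereas the files list mouse Ensembl identifiers, so the build used is not known, and positions are from GENCODE vM21 by identifier. The methods name a SeekOne DD or 10x kit and the labels the SeekOne MM 3′ kit.

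The files held 1437105 FLOX and 1433633 MCT1-KO barcodes. Kept barcodes had at least 500 UMIs, 200 to 5000 detected genes and at most 8% mitochondrial UMIs, and 2060 and 1231 barcodes with over 5000 genes were left out. Libraries were integrated in Seurat 5.3.0 (R 4.3.3) on 2000 variable genes without the 6 genes and clustered with 20 dimensions and resolution 0.8, which gave 25 clusters. A cluster was named if at least 3 fixed markers were 1.5 times as high as elsewhere and found in 10% of its cells. It stayed unnamed if it was shallow and none of its 10 leading genes was a marker, and the cluster led by Tff1 and Gkn1 is called by these genes. These thresholds were set after the clusters had been seen. The deposited files hold no cell annotation, so differences from the study may come from these rebuilt names. Doublets were not removed from the values reported. An alternative left out 699 FLOX and 935 MCT1-KO cells, the 8% of each library that scored highest against simulated doublets. T-like cells were split by UMIs of Cd8, Cd4, Cd3 and natural killer genes.

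Summed UMIs of each class were given as CPM with Garwood intervals (scipy 1.17.1, numpy 2.4.6 and pandas 2.3.3 in python 3.11.15). Ratios have conditional exact intervals, and shares of cells exact Clopper-Pearson intervals. A count of 0 is given a limit of 3 counts per library. Shares were computed in cells thinned to 1000 UMIs, leaving out shallower ones. In 1 library per condition no p-value is given. On Poisson counts simulated at the level of macrophage-like cells, the interval held the true ratio for 95.8% of 11366 genes. The interval assumes such counts, so this checks its arithmetic only. UMIs that gather in few cells were not simulated. Barcodes of 10 to 100 UMIs gave the level of free RNA. Named genes are the 6 genes, for each the 5 most correlated among genes with at least 200 UMIs, Slc16a1 and genes of fixed lists with at least 50 UMIs in the class described. Of the genes this rule names, 2 are not reported here. The genes and lists were chosen with earlier results of these data known. Alternatives changed the filters, doublets, resolution, integration, class rule, total for CPM, weight of cells, free RNA, thinning, pseudocount and the minimum for similar genes. Promoters are from RefSeq (GRCm38.p6), and 4 of the 6 genes were matched. Figures were drawn with matplotlib 3.10.9.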

Additional observations from a re-analysis of the deposited data

Results flagged for a closer look

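The difference of Gpr132 between the libraries did not have the same direction in every class. Its ratio of MCT1-KO over FLOX was 1.11 in macrophage-like cells, 1.38 in T-like cells and 1.35 in dendritic-like cells, with intervals above 1, and 0.621 in tumor-like cells, with an interval of 0.456 to 0.845. With fewer than 50 UMIs or cells, it was 2.74 in PSC/fibroblast-like cells (1.29 to 6.47) and 0.515 in B-like cells (0.289 to 0.952). The difference between classes was not tested. The tumor-like levels of 2.58 and 1.60 CPM lie under the 18.7 and 18.8 CPM of free RNA.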

How the results depend on the processing

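No paired analysis was possible because each condition has 1 library. Of 72 alternative values of the ratios, 60 moved by less than the main interval, 11 moved by more and kept their direction, and 1 turned. The Gpr132 ratio in macrophage-like cells turned to 0.901 when free RNA was subtracted, and it was 1.29 without likely doublets and 1.21 as a mean over cells. The subtraction rests on acinar genes and takes 33.9% of FLOX and 14.6% of MCT1-KO macrophage-like UMIs from the total, which multiplies every ratio of the class by 0.774 before a gene's own free RNA is taken off. With the total kept, added after seeing the data, Gpr132 was 1.16. With the total reduced, the subtraction gave 0.601 for Gpr65 in macrophage-like cells and 0.328 for Hcar2 in neutrophil-like cells. Without likely doublets Gpr65 was 0.830. As a mean over cells Car2 was 0.484 and Car9 0.769. With a class given to each cell from its own markers, Car2 was 0.734 and Car9 0.359, and with no upper gene limit as well Hcar2 was 0.354 and Car9 0.313. This rule also lowered the percentage of UMIs in the leading class to 48.6 for Gpr132, 68.5 for Gpr65, 53.2 for Hcar2, 24.3 for Car2 and 12 for Car9. Without likely doublets it was 84.6 for Gpr65 and 65.6 for Hcar2. The cause of these shifts was not tested. The ratio of the shares of neutrophil-like cells with Hcar2 was 0.581, against 0.385 at 2000 UMIs and 0.453 without thinning. Of the 5 genes most like a member, a pseudocount of 10 CPM kept 3 for Gpr132, 3 for Hcar2, 2 for Car2 and 2 for Car12, and a minimum of 1000 UMIs kept 3 for Hcar2 and 2 for Car12. Leaving out the tumor-like cluster found mostly in FLOX, chosen after seeing the data, gave 0.579 for Car2 and 0.666 for Car9. Depth limits Car12 most, with 47 UMIs in its leading class.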
